A study of Homo sapiens with 6 samples.

Results

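The genes described here are 50 genes of the mitotic spindle, the kinetochore and the spindle checkpoint, taken by name from the deposited table of 58735 genes. All 50 passed the filter on low counts, which 14179 genes of the whole table passed. RNA was sequenced from H2452, an established pleural mesothelioma cell line, in 3 libraries labelled sgCtrl (genotype WT, carrying a scrambled guide RNA) and 3 libraries labelled sgNF2-1 (genotype NF2-KO, carrying a guide RNA against NF2), and these 6 libraries are the whole series. Cas9 and the guide were delivered to both groups by a lentivirus that also encodes mCherry, by which the cells were sorted. Each group is thus a sorted pool of infected cells of 1 cell line. The knockout rests on 1 guide, and the controls carry Cas9 as well. The comparison asks how the transcriptome of these cells differs when NF2, the gene of the tumor suppressor merlin, is targeted. In its statistical methods the study calls its data biological replicates, but the labels do not say that these libraries came from separate cultures, so the p-values below measure the spread between these libraries, which may be technical.

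Entry into mitosis is driven by CDK1 bound to cyclin B, and the cell then builds a bipolar spindle with the help of kinesin motors, Polo-like kinase and Aurora kinases. Kinetochores connect the chromosomes to the spindle microtubules, and unattached kinetochores feed the spindle assembly checkpoint, which holds back CDC20 and the anaphase-promoting complex until every chromosome is attached. Most of these genes are transcribed late in the cell cycle under MYBL2, FOXM1 and the DREAM and MuvB complexes, through promoter elements known as the CCAAT box and the cell cycle homology region (CHR). Merlin acts upstream of the Hippo kinases, which restrain the co-activators YAP and TAZ and their partner TEAD factors.

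For NF2 itself, 1162, 1197 and 1025 counts were found in sgCtrl and 692, 802 and 590 in sgNF2-1. Its log2 fold change was -0.69 (SE 0.10, edgeR adjusted p = 7.87e-06), so the targeted transcript was lower but still present in all 3 libraries of the sorted pool. Library totals ranged from 14782423 to 17416463 counts. Of the mesothelial markers, MSLN, WT1, CALB2, UPK3B, PDPN, KRT7, KRT8, KRT18 and KRT19 passed the count filter, and KRT5, DES and HP were at or near 0. Of 7 markers of immune, endothelial and epithelial cells, PECAM1 and CDH5 passed the filter, while CDH1 and PTPRC were listed at 0 FPKM in every library. Of the 2 that passed, 1 was called lower and 0 higher. The summed level of PECAM1 and CDH5 was 6.06 to 8.47 CPM (counts scaled to library size, normalized by TMM) in sgCtrl and 1.88 to 3.24 CPM in sgNF2-1. The markers that did not pass the filter are not in this sum, and its part in the results was not tested.

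The promoters of 7 members are printed to show where the letters of these elements lie. ASPM, KIF20A and SPC24 are the members called lower that fell most, PLK1 is the member that rose, and CCNB1, CCNB2 and CDC20 are members that were not called. Each run holds the 120 bases before the first listed RefSeq start site, on the strand of the gene in build GRCh38.p14. Capitals mark CCAAT or its reverse complement ATTGG, and the CHR letters TTTGAA or their reverse complement TTCAAA.
ASPM: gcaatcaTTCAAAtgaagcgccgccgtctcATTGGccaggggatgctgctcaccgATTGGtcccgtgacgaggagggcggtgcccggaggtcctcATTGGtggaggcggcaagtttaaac
KIF20A: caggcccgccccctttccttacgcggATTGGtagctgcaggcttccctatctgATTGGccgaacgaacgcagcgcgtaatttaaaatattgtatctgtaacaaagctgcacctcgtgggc
SPC24: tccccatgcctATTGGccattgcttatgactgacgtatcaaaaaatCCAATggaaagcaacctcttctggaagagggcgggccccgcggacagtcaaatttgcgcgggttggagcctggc
PLK1: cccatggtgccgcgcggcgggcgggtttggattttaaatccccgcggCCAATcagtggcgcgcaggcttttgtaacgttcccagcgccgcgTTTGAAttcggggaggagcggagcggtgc
CCNB1: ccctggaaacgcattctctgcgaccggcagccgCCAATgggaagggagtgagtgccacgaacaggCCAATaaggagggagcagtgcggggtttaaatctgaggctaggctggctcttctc
CCNB2: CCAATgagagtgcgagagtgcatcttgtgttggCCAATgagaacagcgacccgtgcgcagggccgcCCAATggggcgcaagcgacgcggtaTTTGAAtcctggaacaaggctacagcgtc
CDC20: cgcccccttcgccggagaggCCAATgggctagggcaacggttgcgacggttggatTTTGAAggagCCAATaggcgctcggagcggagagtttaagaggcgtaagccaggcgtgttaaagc
These runs lie at chr1:197146670-197146789 (ASPM, minus strand), chr5:138178992-138179111 (KIF20A, plus), chr19:11155783-11155902 (SPC24, minus), chr16:23678769-23678888 (PLK1, plus), chr5:69167030-69167149 (CCNB1, plus), chr15:59105026-59105145 (CCNB2, plus) and chr1:43358861-43358980 (CDC20, plus). ASPM, which fell, PLK1, which rose, and CCNB2 and CDC20, which were not called, each held the letters of both elements, on either strand, in this stretch. Only exact letters were searched, and whether they act as elements was not tested.

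Of the 50 genes, 43 had an entry in the RefSeq promoter table, whose windows run from 250 bases before to 50 bases after the start site. UBE2C, BIRC5, TTK, AURKA, BUB3, TPX2 and FOXM1 had none. The CHR letters TTTGAA or TTCGAA, on either strand, were in a window of 33 of the 43 genes (76.7%), beside 15.5% of 9649 protein-coding genes with a mean of at least 10 counts and 19.5% of all 27305 genes of the table. CCAAT was found in 34 of 43 (79.1%), beside 43.1% and 39.7%. An E2F motif, TTCGCGC or TTGGCGC, was in 7 of 43 (16.3%), beside 10.6% and 6.10%. The TEAD letters GGAATG were in 7 of 43 (16.3%), beside 14.99% and 16.7%. The mitotic genes therefore held the CHR and CCAAT letters more often than genes at large, by description and with no test, and held the TEAD letters about as often. Of the changes described below, 12 of the 33 members with the CHR letters were called lower, with a median log2 fold change of -0.21, and 5 of the 10 without them, with a median of -0.24. With CCAAT, 13 of 34 were called lower and 25 lay below 0, with a median of -0.18, and without it 4 of 9 were called lower and all 9 lay below 0, with a median of -0.35. These splits are descriptions of small groups and were not tested.

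As a group, the mitotic genes were modestly lower in sgNF2-1, and unevenly so. At an edgeR adjusted p under 0.05 over all 14179 genes, 18 of the 50 were lower (36%), 1 was higher and 31 were not called, beside a background of 16.6% of all genes lower and 17.7% higher. A log2 fold change below 0 was found for 38 of the 50, where 50.3% of all genes lay below 0, and the median was -0.18 over the mitotic genes and -0.00 over all genes. Without sgCtrl replicate 3 the median over the mitotic genes was -0.12. The 18 lower genes ranged from -0.78 to -0.28, with a median of -0.42, so none was reduced as much as NF2 apart from ASPM. In bulk RNA, fewer cells in mitosis and less mitotic RNA per cell cannot be told apart. Under the thresholds of the study's methods, an unadjusted p under 0.05 with a log2 fold change beyond 0.5, 4 of the 50 were lower (ASPM, KIF20A, SPC24 and PRC1) and 0 were higher, beside 10.8% and 9.22% of all genes. At an unadjusted p under 0.05 alone, edgeR gave 21 lower and 2 higher, beside 21.3% and 22.1% of all genes. With the fold limit, DESeq2 gave 3 lower and 0 higher, beside 10.1% and 8.82%. The count of 4 became 8 without sgCtrl replicate 1 or without sgNF2-1 replicate 2, and 2 without sgCtrl replicate 3.

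**Figure D1:**
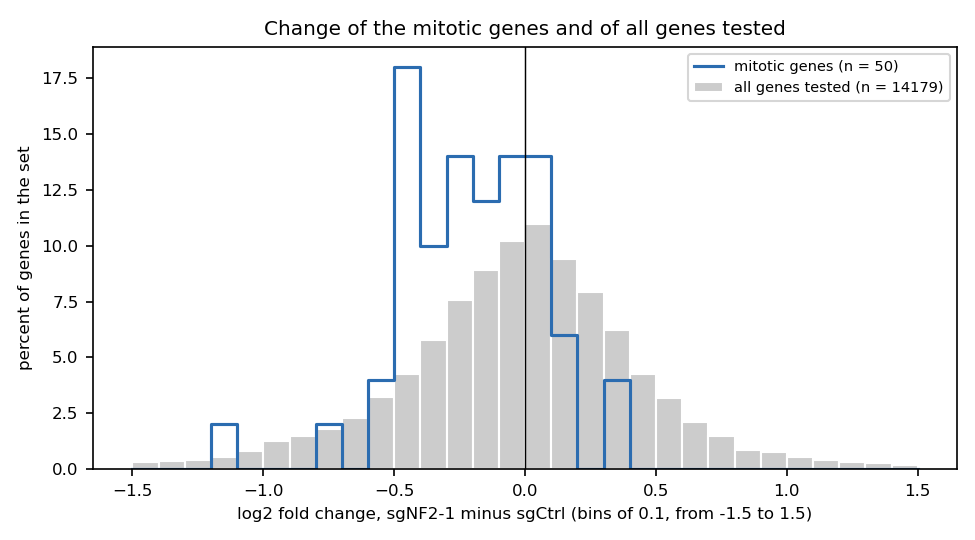
Percent of genes (vertical axis) in each bin of log2 fold change, sgNF2-1 minus sgCtrl (horizontal axis), for the 50 mitotic genes (line) and for the 14179 genes tested (bars). The bin from -0.5 to -0.4 holds 9 of the mitotic genes (18%) and 4.24% of all genes, and no mitotic gene lies above 0.4.

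Library by library, the summed level of the 50 genes was 2885, 2878 and 2962 CPM in sgCtrl and 2611, 2763 and 2609 CPM in sgNF2-1. All 3 sgNF2-1 sums were below all 3 sgCtrl sums, and sgNF2-1 replicate 2 lay nearest to the controls. That replicate was the highest of its group for 33 of the 50 genes, and sgCtrl replicate 3 was the highest of its group for 25. In CPM, 24 genes had groups with no overlap, 21 of them lower and 3 higher, beside 22.2% and 23.2% of all genes. For these 24 genes the two-sided exact permutation test gave p = 0.1, the smallest that 3 libraries against 3 allow. The coefficient of variation within a group had a median of 7.35% in sgCtrl and 7.69% in sgNF2-1.

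**Figure D2:**
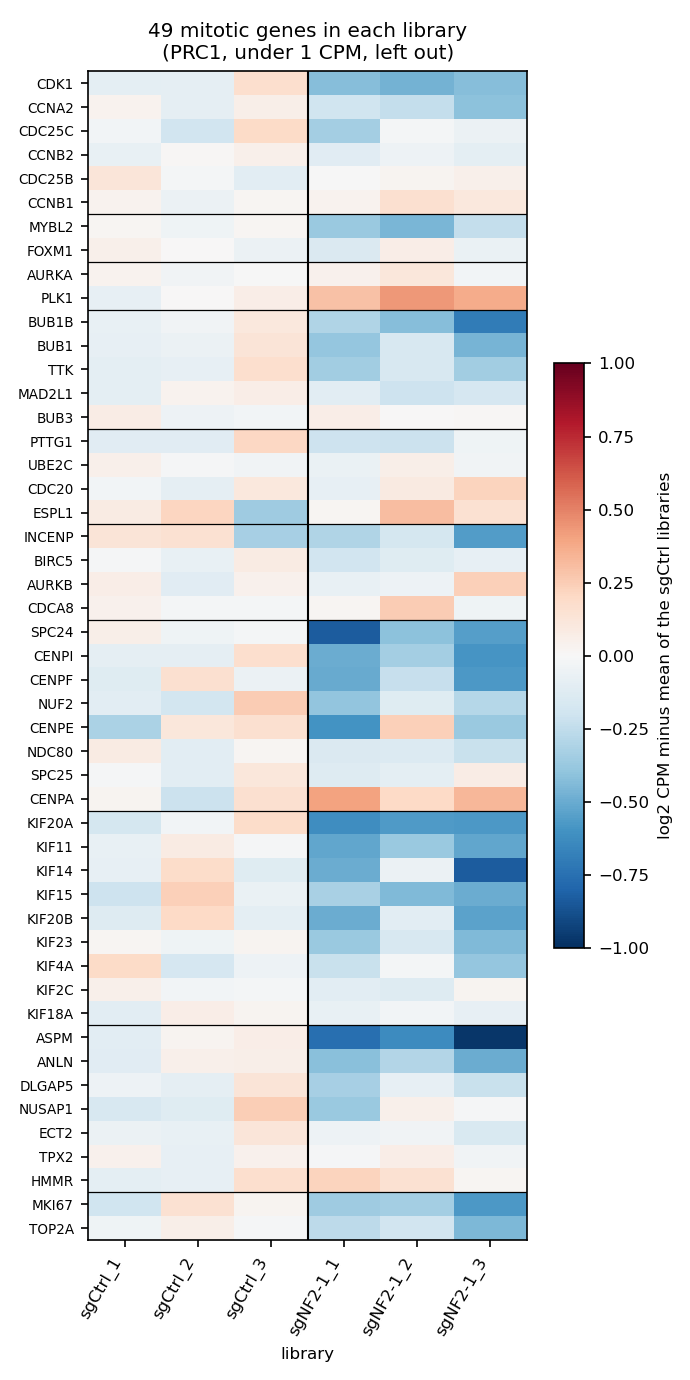
Level of 49 mitotic genes (rows, ordered by role and then by change; PRC1 left out) in each of the 6 libraries (columns), as log2 CPM minus the mean of the sgCtrl libraries; blue is below and red above that mean. The blue rows of ASPM, SPC24 and KIF20A run through all 3 sgNF2-1 libraries, PLK1 is red in all 3, and for KIF14, KIF20B and CENPE sgNF2-1 replicate 2 is paler or of the other color.

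Among the cyclins, CDK1 and the CDC25 phosphatases, 2 of 6 were called lower and 0 higher, beside 16.6% and 17.7% of all genes. CDK1, the kinase that drives entry into mitosis, was at 71.3, 71.5 and 85.9 CPM in sgCtrl and at 56.7, 55.1 and 56.7 CPM in sgNF2-1, with no overlap and with a tight sgNF2-1 group. Its log2 fold change was -0.44 (SE 0.09, edgeR adjusted p = 0.00057). CCNA2, the cyclin of S phase and early mitosis, fell from 50.9 ± 2.7 to 41.9 ± 3.2 CPM (SD, n = 3), a log2 fold change of -0.28 (SE 0.10, edgeR adjusted p = 0.0261). The CCNA2 call was lost without sgCtrl replicate 1 (adjusted p = 0.0727), sgCtrl replicate 3 (0.0670), sgNF2-1 replicate 2 (0.0540) or sgNF2-1 replicate 3 (0.0998), and without the count filter (0.0630).

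The B-type cyclins that activate CDK1 were not called. CCNB1, cyclin B1, was at 160.1, 150.6 and 159.1 CPM in sgCtrl and at 160.8, 174.9 and 168.5 CPM in sgNF2-1, and its log2 fold change was 0.10 with a 95% interval from -0.06 to 0.26. The lowest sgNF2-1 library of CCNB1 lay just above its highest control. CCNB2, cyclin B2, had a log2 fold change of -0.09 (95% interval -0.27 to 0.09). CDC25B, a phosphatase that activates CDK1, had the highest level per length of the 50 genes, 67.5 FPKM in sgCtrl, and a log2 fold change of 0.02 (95% interval -0.14 to 0.19). CDC25C, a phosphatase with the same target, had a log2 fold change of -0.13 (95% interval -0.46 to 0.19).

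**Figure D3:**
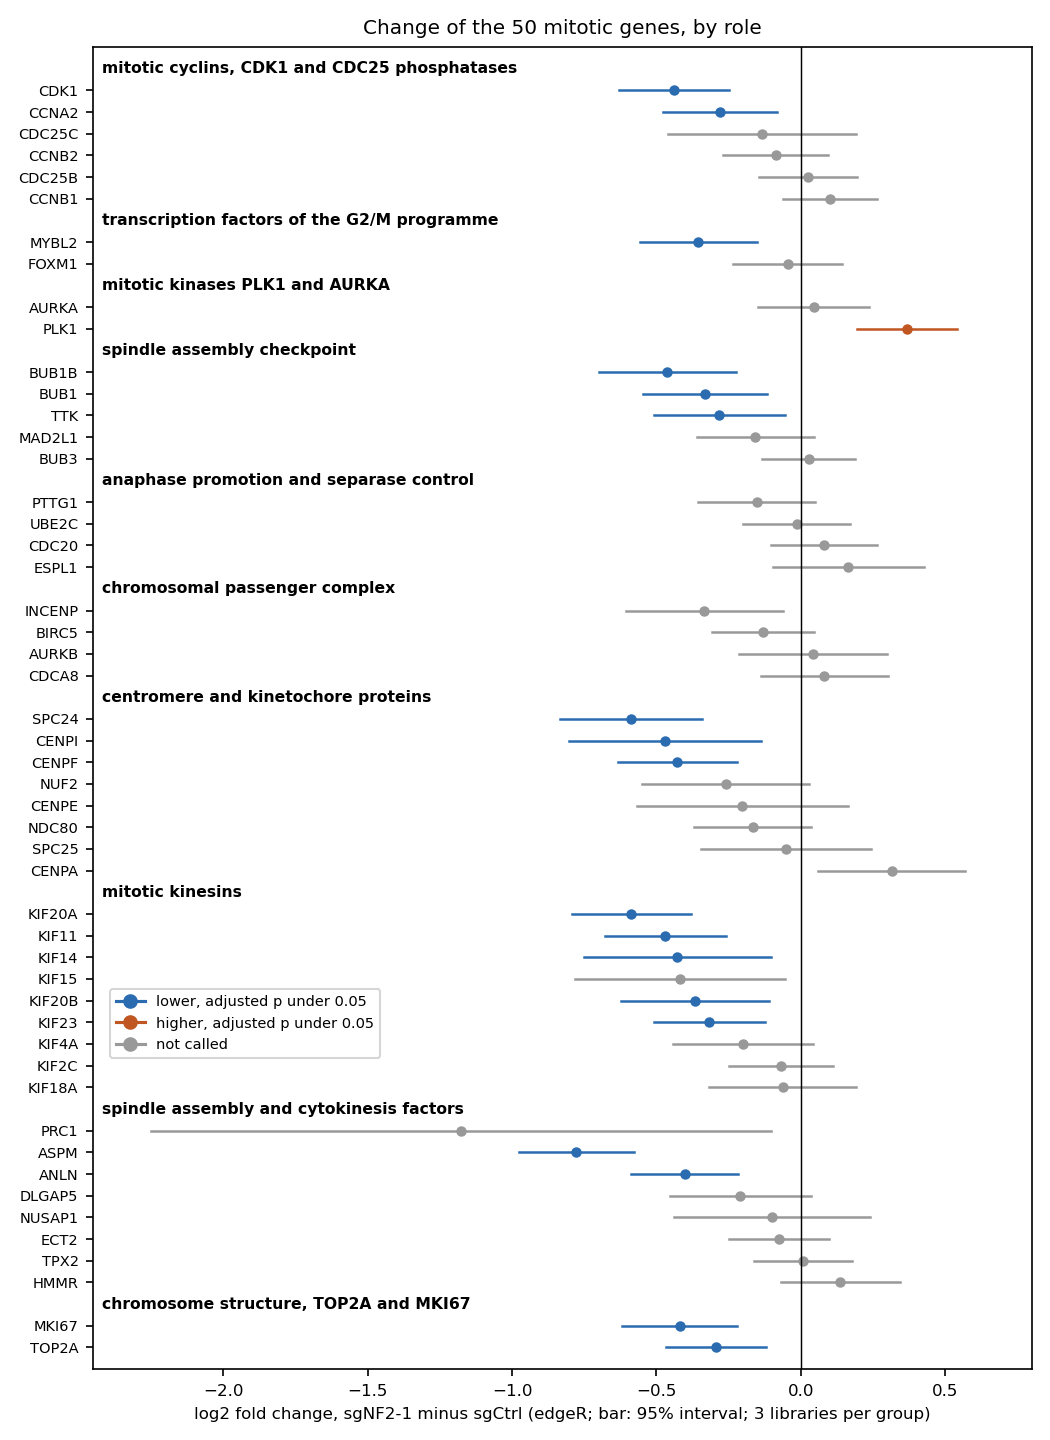
Log2 fold change, sgNF2-1 minus sgCtrl (horizontal axis, points) with its 95% interval (bars) from edgeR for the 50 mitotic genes, grouped by role and coded by call at an adjusted p under 0.05. The 9 kinesins all lie below 0, PLK1 is the only gene called higher, and PRC1 has the widest interval, from -2.25 to -0.10.

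Of the 2 transcription factors of the late cell cycle programme, MYBL2, which joins the MuvB complex to activate mitotic genes, was at 44.7, 42.8 and 44.7 CPM in sgCtrl and at 34.0, 32.1 and 37.4 CPM in sgNF2-1. The groups were well apart, and the log2 fold change was -0.35 (SE 0.10, edgeR adjusted p = 0.00663), although the adjusted p was 0.0533 without sgNF2-1 replicate 2. FOXM1, which follows MYBL2 on many of the same promoters, was at 58.8, 56.8 and 54.4 CPM in sgCtrl and 51.3, 59.5 and 54.1 CPM in sgNF2-1. Its groups overlapped, with a log2 fold change of -0.05 (95% interval -0.23 to 0.14), and 15.94% of its exonic bases are shared with ITFG2 on the opposite strand. Whether reads were counted by strand is not given in the sources used here.

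PLK1, Polo-like kinase 1, which acts at centrosomes, kinetochores and the midbody, was the 1 member called higher. It was at 72.7, 77.1 and 80.5 CPM in sgCtrl and at 94.2, 103.6 and 99.3 CPM in sgNF2-1. Every sgNF2-1 library was above every control, and the log2 fold change was 0.37 (SE 0.08, edgeR adjusted p = 0.00136). PLK1 stayed called in each of the 12 alternative edgeR and DESeq2 fits, with log2 fold changes from 0.33 to 0.41. Antisense and neighboring genes that share 12.5% of its exonic bases had 0 counts in all 6 libraries. AURKA, the Aurora kinase of the spindle poles, which activates PLK1, was at 43.6 ± 1.1 CPM in sgCtrl and 45.0 ± 2.2 CPM in sgNF2-1 (SD, n = 3), a log2 fold change of 0.04 (95% interval -0.15 to 0.24).

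**Figure D4:**
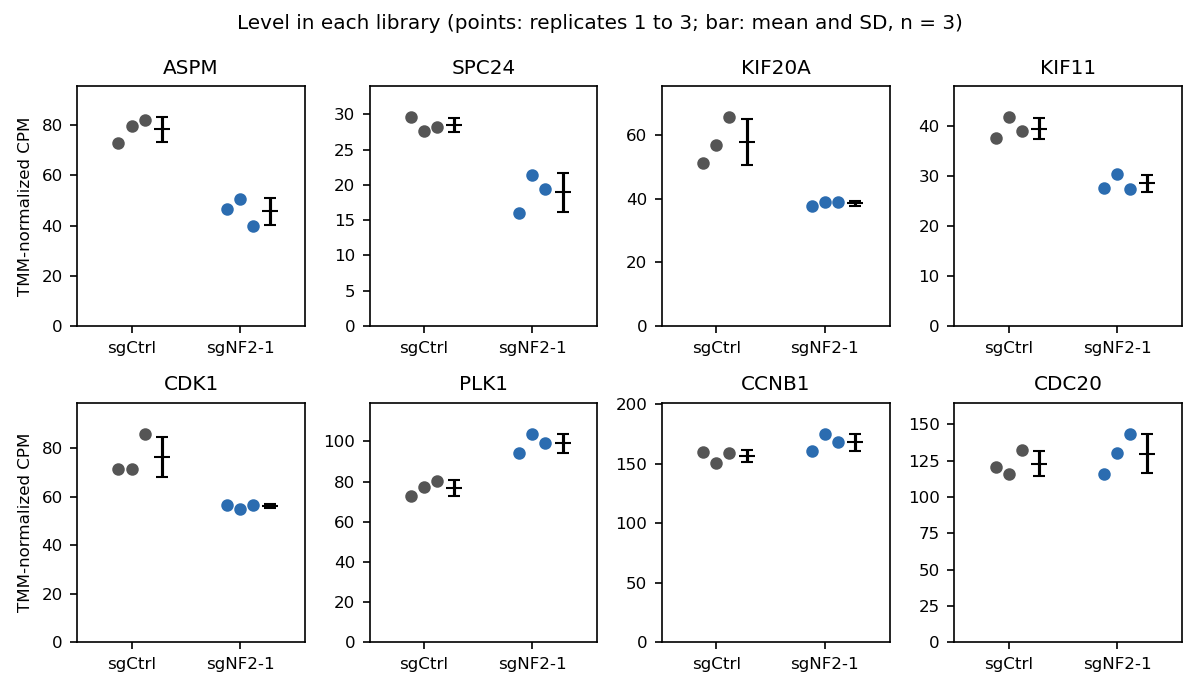
TMM-normalized CPM (vertical axes, each from 0) of 8 mitotic genes in the sgCtrl and sgNF2-1 libraries; points are replicates 1 to 3 and the bar beside them is the mean with the SD (n = 3). ASPM, SPC24, KIF20A, KIF11 and CDK1 have every sgNF2-1 library below every control, PLK1 and CCNB1 have every one above, and the CDC20 groups overlap.

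In the spindle assembly checkpoint, 3 of 5 genes were called lower and 0 higher, beside 16.6% and 17.7% of all genes. BUB1B, the gene of BUBR1, a subunit of the complex that inhibits CDC20, was at 31.3, 32.2 and 35.4 CPM in sgCtrl and at 26.8, 24.5 and 20.3 CPM in sgNF2-1. The groups did not overlap, and the log2 fold change was -0.46 (SE 0.12, edgeR adjusted p = 0.00293). BUB1B shares 10.21% of its exonic bases with the read-through gene BUB1B-PAK6, which had 0 counts in every library. BUB1, the kinase that recruits BUBR1 to kinetochores, had a log2 fold change of -0.33 (SE 0.10, edgeR adjusted p = 0.0158). TTK, the kinase that starts checkpoint signaling, was at -0.28 (SE 0.11, edgeR adjusted p = 0.0484), the call nearest to the threshold. MAD2L1, which also binds and inhibits CDC20, had a log2 fold change of -0.16 (95% interval -0.36 to 0.05) and groups that did not overlap. BUB3, the WD40 partner of BUB1 and BUBR1, was at 211 ± 9.5 CPM in sgCtrl and 215 ± 4.9 CPM in sgNF2-1 (SD, n = 3), a log2 fold change of 0.03 (95% interval -0.13 to 0.19). Leaving out sgCtrl replicate 3, sgNF2-1 replicate 1 or sgNF2-1 replicate 3 gave adjusted p-values of 0.0710, 0.0772 and 0.0703 for BUB1 and of 0.205, 0.165 and 0.120 for TTK, and TTK also stood at 0.0566 without sgCtrl replicate 2, at 0.0536 in DESeq2 and at 0.0985 without the count filter.

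The genes that carry out the step the checkpoint guards were not called in either direction, with 0 of 4 lower and 0 of 4 higher. With shares of 16.6% lower and 17.7% higher over all genes, 0 of 4 does not set these genes apart. CDC20, the activator of the anaphase-promoting complex, was at 120.4, 115.6 and 132.3 CPM in sgCtrl and at 115.9, 130.4 and 143.2 CPM in sgNF2-1. The values interleaved, and the log2 fold change was 0.08 (95% interval -0.10 to 0.26). UBE2C, the ubiquitin-conjugating enzyme of that complex, had a log2 fold change of -0.01 (95% interval -0.20 to 0.17). PTTG1, or securin, was at -0.15 (95% interval -0.36 to 0.05), and ESPL1, the separase that securin holds inactive, was at 0.16 (95% interval -0.10 to 0.43). At unadjusted p under 0.05 the count over these 4 genes was likewise 0 in edgeR, beside 21.3% of all genes lower and 22.1% higher.

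The chromosomal passenger complex corrects faulty attachments and later directs cytokinesis. Its genes gave 0 of 4 lower and 0 of 4 higher, beside 16.6% and 17.7% of all genes. INCENP, its scaffold, was at 30.3, 30.8 and 21.9 CPM in sgCtrl and at 22.5, 24.6 and 18.7 CPM in sgNF2-1, so that sgCtrl replicate 3 lay within the sgNF2-1 range. Its log2 fold change was -0.33 (SE 0.13, edgeR adjusted p = 0.0515), just outside the threshold. It was called lower in 7 of 12 alternative fits: without sgCtrl replicate 3 (adjusted p = 0.00513), without sgNF2-1 replicate 2 (0.0305), with the replicate block (0.0202), with at least 10 counts in every library (0.0465), with library totals (0.0480), without the filter (0.0486) and with the DESeq2 size factors in edgeR (0.0494). BIRC5, or survivin, was at -0.13 (95% interval -0.31 to 0.05) with groups that did not overlap. AURKB, the kinase of the complex, and CDCA8, or borealin, had log2 fold changes of 0.04 (95% interval -0.21 to 0.30) and 0.08 (95% interval -0.14 to 0.30).

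Of 8 centromere and kinetochore genes, 3 were called lower and 0 higher, beside 16.6% and 17.7% of all genes. A log2 fold change below 0 was found for 7 of them, beside 50.3% of all genes. SPC24, a subunit of the NDC80 complex that binds microtubules (ENSG00000161888, chr19:11131520-11155808 in hg38, minus strand), gave 466, 454 and 427 counts in sgCtrl and 281, 331 and 277 in sgNF2-1. In CPM these were 29.6, 27.7 and 28.1 against 16.0, 21.4 and 19.5, the sgCtrl group being narrow and all 3 sgNF2-1 libraries below it. The log2 fold change was -0.59 (SE 0.12, edgeR adjusted p = 0.000427).

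The other 3 subunits of the NDC80 complex were not called, with log2 fold changes of -0.17 for NDC80 (95% interval -0.37 to 0.04), -0.26 for NUF2 (95% interval -0.55 to 0.03) and -0.05 for SPC25 (95% interval -0.34 to 0.24). SPC25, which pairs with SPC24 in the protein complex, was at 11.0, 10.3 and 11.99 CPM in sgCtrl and at 10.1, 10.4 and 11.7 CPM in sgNF2-1. Its groups overlapped and those of SPC24 did not, and the difference between the 2 genes was not tested.

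CENPF, a large kinetochore and nuclear matrix protein that accumulates in G2, was at 71.3, 86.5 and 74.3 CPM in sgCtrl and at 54.5, 66.0 and 52.0 CPM in sgNF2-1. The log2 fold change was -0.43 (SE 0.10, edgeR adjusted p = 0.00168), with no overlap. CENPI, a subunit of the inner kinetochore network on centromeric chromatin, had a log2 fold change of -0.47 (SE 0.16, edgeR adjusted p = 0.0259) from 90 to 162 counts, and its adjusted p was 0.0970 without sgCtrl replicate 3, 0.0743 without sgNF2-1 replicate 1 and 0.0766 without sgNF2-1 replicate 3. CENPE, a kinetochore motor, overlapped between groups, at -0.20 (95% interval -0.57 to 0.16), and was at -0.48 with an adjusted p of 0.0365 without sgNF2-1 replicate 2.

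CENPA, the histone H3 variant that marks centromeres, lay higher without overlap, as PLK1 and CCNB1 did, but was not called. It was at 18.1, 15.3 and 19.8 CPM in sgCtrl and at 23.4, 20.3 and 22.4 CPM in sgNF2-1. The log2 fold change was 0.31 (SE 0.12, edgeR adjusted p = 0.0509), with an adjusted p of 0.0215 without sgCtrl replicate 3 and of 0.0463 without sgNF2-1 replicate 2. CENPA shares 6.96% of its exonic bases with SLC35F6 on the same strand, whose counts were 1505 to 1654 in sgCtrl and 2545 to 3125 in sgNF2-1, against 251 to 412 counts for CENPA, and the part of these reads in the CENPA value was not tested.

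The mitotic kinesins gave 5 of 9 lower and 0 higher, beside 16.6% and 17.7% of all genes. All 9 had a log2 fold change below 0, with a median of -0.37, where 50.3% of all genes lay below 0. KIF20A, or MKLP2, which brings the chromosomal passenger complex to the central spindle (ENSG00000112984, chr5:138178719-138187715 in hg38, plus strand), was at 51.1, 56.8 and 65.6 CPM in sgCtrl and at 37.6, 39.0 and 38.9 CPM in sgNF2-1. The controls were spread and the sgNF2-1 libraries tight, with no overlap, and the log2 fold change was -0.59 (SE 0.10, edgeR adjusted p = 5.78e-05). KIF11, or Eg5, which pushes the spindle poles apart, was at 37.6, 41.8 and 39.1 CPM in sgCtrl and at 27.6, 30.5 and 27.5 CPM in sgNF2-1. Its log2 fold change was -0.47 (SE 0.10, edgeR adjusted p = 0.000831), again with no overlap.

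KIF23, or MKLP1, a subunit of centralspindlin at the midzone, was at -0.32 (SE 0.09, edgeR adjusted p = 0.00984), KIF14, a motor of the midbody, at -0.43 (SE 0.16, edgeR adjusted p = 0.0371) and KIF20B, a motor of late cytokinesis, at -0.37 (SE 0.12, edgeR adjusted p = 0.0249). For KIF14 and KIF20B the groups overlapped, with sgNF2-1 replicate 2 at 16.2 and 29.9 CPM and the other two at 11.99 and 9.48 CPM for KIF14 and at 22.8 and 22.2 CPM for KIF20B. Without sgNF2-1 replicate 1 the adjusted p was 0.0578 for KIF23, 0.121 for KIF14 and 0.129 for KIF20B. KIF14 and KIF20B were also not called without sgCtrl replicate 2 (0.170 and 0.176) or without sgNF2-1 replicate 3 (0.207 and 0.116).

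The 4 kinesins that were not called were KIF15, a motor that can stand in for KIF11, KIF4A, a chromosome-bound motor that sizes the midzone, KIF2C, or MCAK, a microtubule depolymerase, and KIF18A, which dampens chromosome movement at the plate. KIF15 had a log2 fold change of -0.42 from 80 to 153 counts (SE 0.18, edgeR adjusted p = 0.0684, and 0.0447 without sgCtrl replicate 1), with groups that did not overlap. KIF4A was at -0.20 (95% interval -0.44 to 0.04), KIF2C at -0.07 (95% interval -0.25 to 0.11) and KIF18A at -0.06 (95% interval -0.32 to 0.19).

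Among 8 spindle assembly and cytokinesis factors, 2 were called lower and 0 higher, beside 16.6% and 17.7% of all genes. ASPM, which sits at the minus ends of spindle microtubules and keeps the poles focused (ENSG00000066279, chr1:197084128-197146694 in hg38, minus strand), fell the most of the members called. It gave 1149, 1311 and 1247 counts in sgCtrl and 818, 781 and 567 in sgNF2-1, or 72.9, 79.9 and 82.2 CPM against 46.5, 50.6 and 39.8 CPM. No library of the 2 groups came near the other, and the sgNF2-1 mean was 58.3% of the control mean. ASPM had a log2 fold change of -0.78 (SE 0.10, edgeR adjusted p = 7.82e-07), which ran from -0.85 to -0.69 over the 12 alternative fits. ANLN, or anillin, the scaffold of the contractile ring, was at 71.2, 79.9 and 80.0 CPM in sgCtrl and at 57.5, 62.7 and 54.5 CPM in sgNF2-1. Its log2 fold change was -0.40 (SE 0.09, edgeR adjusted p = 0.00108), with no overlap.

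TPX2, ECT2, HMMR, DLGAP5 and NUSAP1 were not called. TPX2, which activates AURKA on the spindle, was at 99.9 ± 5.0 CPM in sgCtrl and 100.4 ± 3.7 CPM in sgNF2-1 (SD, n = 3), with a log2 fold change of 0.01 (95% interval -0.16 to 0.18). ECT2, the RhoA exchange factor of cytokinesis, was at -0.08 (95% interval -0.25 to 0.10) and HMMR, a spindle pole protein, at 0.14 (95% interval -0.07 to 0.34). DLGAP5, or HURP, which stabilizes kinetochore fibers, was at -0.21 (95% interval -0.45 to 0.03). NUSAP1, a microtubule bundling protein, was at -0.10 (95% interval -0.44 to 0.24). Of its exonic bases, 62.16% are shared on the same strand with AC087721.2, which had 0 counts in 5 libraries and 1 count in the other. How reads over shared bases were counted is not given, so the level of NUSAP1 is uncertain.

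PRC1, the microtubule crosslinker of the central spindle, was barely counted in these tables. It gave 10, 16 and 11 counts in sgCtrl and 4, 5 and 7 in sgNF2-1, which is under 1 CPM in every library and 0.133 FPKM in sgCtrl. The sgNF2-1 counts all lay below the sgCtrl counts, with a log2 fold change of -1.18 and a 95% interval from -2.25 to -0.10 (edgeR adjusted p = 0.0836). Of its exonic bases, 57.57% are shared on the same strand with AC068831.7, which gave 54 to 69 counts in sgCtrl and 29 to 48 in sgNF2-1, so the level of PRC1 is uncertain.

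Both genes of the last group, which mark proliferating cells and shape their chromosomes, were called lower, beside 16.6% of all genes. MKI67, the gene of Ki-67, which coats mitotic chromosomes, was at 83.7, 106.9 and 98.1 CPM in sgCtrl and at 75.2, 75.9 and 64.6 CPM in sgNF2-1. Its log2 fold change was -0.42 (SE 0.10, edgeR adjusted p = 0.00134). TOP2A, the topoisomerase that untangles sister chromatids, was at 162.4, 174.1 and 165.6 CPM in sgCtrl and at 139.6, 146.8 and 122.7 CPM in sgNF2-1, a log2 fold change of -0.29 (SE 0.08, edgeR adjusted p = 0.00805). For neither gene did the groups overlap.

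Of the 18 lower genes, 16 had groups that did not overlap, 14 were called lower by edgeR, DESeq2 and limma alike, and 10 stayed called in each alternative edgeR and DESeq2 fit. These 10 were ASPM, SPC24, KIF20A, KIF11, BUB1B, CDK1, CENPF, MKI67, ANLN and TOP2A. DESeq2 called 17 members lower and 1 higher, beside 15.9% and 17% of the genes it tested. On the deposited FPKM values, limma called 14 lower and 1 higher of the 49 members with a mean of at least 0.5 FPKM, beside 13.4% and 13.3% of 13038 genes. On this scale, log2(FPKM + 1), differences of low genes are understated, and the count of 14 fell to 9 with a pseudocount of 0.1, to 8 without the filter and to between 6 and 10 when 1 library was left out, the lowest being 6 without sgCtrl replicate 2 or sgNF2-1 replicate 1. Without sgCtrl replicate 1, sgCtrl replicate 3 or sgNF2-1 replicate 3 it was 8. The 1 higher call, PLK1, became 0 without sgCtrl replicate 1, sgCtrl replicate 2 or sgNF2-1 replicate 2.

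Levels of different genes can be set side by side only per length, as FPKM. In sgCtrl the members with the highest levels were CDC25B (67.5 ± 5.4 FPKM, SD, n = 3), CCNB1 (58.0 ± 1.9), CDC20 (57.1 ± 3.9), UBE2C (39.1 ± 1.3), PTTG1 (30.0 ± 3.9) and TPX2 (26.3 ± 1.3). CCNB1 and CDC20 did not differ beyond their spread, and none of these 6 was called in either direction. TOP2A (24.6 FPKM) was the most abundant member called lower, and the lowest levels were those of CENPI (2.09 FPKM), KIF15 (1.42), CENPE (1.33) and PRC1. Across the 50 members the Spearman correlation of the log2 fold change with the mean FPKM of sgCtrl was 0.40.

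The members that were lower were mostly long genes. Of the 25 members longer than the median of 4317.5 exonic bases, 13 were called lower, with a median log2 fold change of -0.33, and of the 25 at or under it 5 were, with a median of -0.09. Across the 50 members the Spearman correlation of the log2 fold change with length was -0.41, whereas over all 14179 genes it was -0.05. These correlations are descriptions over genes measured in the same 6 libraries, and length and level per length are not independent of each other. Exceptions were found at both ends: ESPL1 (8890 bases) and BUB3 (8300 bases) were not called, and SPC24 (2839 bases), MYBL2 (2777 bases) and CCNA2 (2798 bases) were lower.

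**Figure D5:**
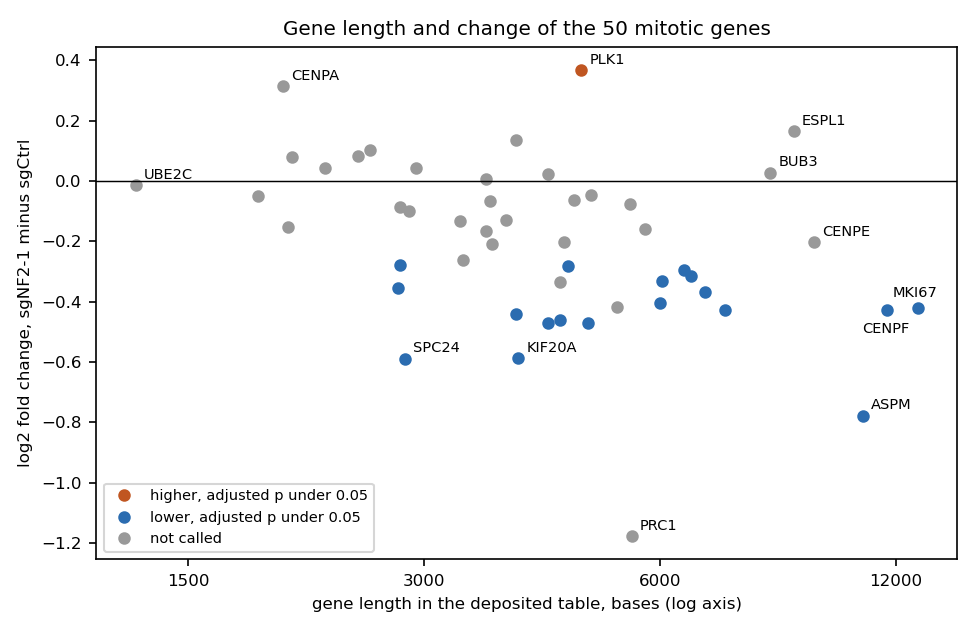
Exonic length in bases (horizontal log axis) and log2 fold change, sgNF2-1 minus sgCtrl (vertical axis), of the 50 mitotic genes, coded by call at an adjusted p under 0.05. Most of the genes called lower lie to the right of 4317.5 bases, with SPC24 as the lowest of the shorter ones, and the 1 gene called higher is PLK1.

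The other genes of mitosis, in 5 lists of 112 genes that do not include the members, were measured in the same fit, and all 112 passed the count filter. Of these, 30 were called lower (26.8%) and 5 higher (4.46%), with a median log2 fold change of -0.14. The shares over all genes, for these 112 and for each list below, were 16.6% lower and 17.7% higher. The condensins and cohesins, which compact and hold together the chromosomes, gave 8 of 20 lower (40%) and 0 higher. The lowest of them were condensin II subunits NCAPG2 (log2 fold change -0.63, edgeR adjusted p = 0.000124) and NCAPD3 (-0.52, 0.000179) and the condensin I subunit NCAPG (-0.49, 0.000508). The other centromere and kinetochore genes gave 9 of 31 lower and 1 higher. HJURP, the chaperone that loads CENPA, was at -0.65 (edgeR adjusted p = 2.69e-05), KNTC1, which recruits dynein to kinetochores, at -0.63 (2.66e-05) and DSN1 of the MIS12 complex at -0.49 (0.00145), while MAD1L1, the partner of MAD2L1, was the 1 higher, at 0.53 (0.000157).

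The other spindle, centrosome and cytokinesis factors gave 5 of 21 lower (23.8%) and 0 higher, beside 16.6% and 17.7% of all genes. The lowest were FAM83D (-0.43, edgeR adjusted p = 0.000499), SPAG5 (-0.37, 0.0133) and GTSE1 (-0.34, 0.0248). The subunits and partners of the anaphase-promoting complex gave 1 of 17 lower (5.88%) and 2 higher (11.8%), with a median of -0.02. Among CDC20, UBE2C, PTTG1 and ESPL1, 0 of 4 were called. CDC16 was higher at 0.48 (edgeR adjusted p = 0.000127), as was UBE2S, its chain-elongating enzyme, at 0.26 (0.0312), and CDC26 was lower at -0.58 (0.00804). In the upstream control list, 7 of 23 were lower (30.4%) and 2 higher (8.70%). The E2F factors E2F8 (-0.85, edgeR adjusted p = 0.00348), E2F2 (-0.69, 0.00321) and E2F1 (-0.60, 8.51e-05) were its lowest, and E2F5 (0.68, 0.0414) and the CDK inhibitor CDKN1A (0.34, 0.0488) were the 2 higher. Neither of these 2 was called in DESeq2 (adjusted p = 0.0561 for E2F5 and 0.0677 for CDKN1A). The CDKN1A call was also lost in edgeR with the DESeq2 size factors (0.0511), library totals (0.0689) or at least 10 counts in every library (0.0540). Several of these calls were lost when 1 library was left out: without sgNF2-1 replicate 3 the adjusted p was 0.197 for UBE2S, 0.0710 for SPAG5, 0.130 for GTSE1, 0.130 for E2F5 and 0.229 for CDKN1A, and without sgNF2-1 replicate 1 it was 0.0537 for CDC26, 0.0573 for GTSE1 and 0.0938 for E2F5. Without sgCtrl replicate 1 it was 0.0551 for GTSE1, 0.198 for E2F5 and 0.212 for CDKN1A, without sgCtrl replicate 2 it was 0.125 for UBE2S, 0.0714 for GTSE1, 0.109 for E2F5 and 0.0665 for CDKN1A, without sgCtrl replicate 3 it was 0.0505 for UBE2S, and without sgNF2-1 replicate 2 it was 0.0649 for CDKN1A.

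Genes that act earlier in the cell cycle were set beside the mitotic genes. Of 40 genes of replication origins and forks, 16 were lower (40%) and 4 higher (10%), beside 16.6% and 17.7% of all genes. Their median was -0.26. Of the 7 G1 cyclins and CDKs that passed the filter, 4 were lower (57.1%) and 1 higher (14.3%), with a median of -0.36. The 4 lower G1 calls became 2 without sgCtrl replicate 3 or without sgNF2-1 replicate 1. The lowest replication genes were POLE2 (-0.90, edgeR adjusted p = 0.00301), PCNA, the sliding clamp (-0.86, 1.24e-08), and MCM10 (-0.85, 0.00568), and the highest were ORC5 (0.70, 4.52e-05), POLD2 (0.51, 4.90e-05) and MCM7 (0.38, 0.000805). Among the G1 genes CCNE2 was at -1.25 (edgeR adjusted p = 0.00254), CCND3 at -0.67 (2.22e-06), CCNE1 at -0.62 (0.0453) and CDK6 at 0.77 (3.66e-06). CCNE1 was not called when sgCtrl replicate 1, 2 or 3 or sgNF2-1 replicate 1 or 2 was left out (adjusted p of 0.0621, 0.133, 0.0693, 0.128 and 0.179). Its call was also lost in DESeq2 (0.0617) and in edgeR without the count filter (0.0630). The shares called lower were 36% in the mitotic genes and 40% in the replication genes, and the difference between the lists was not tested.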

How the data were processed

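The series holds 3 sgCtrl and 3 sgNF2-1 libraries of H2452 cells, grouped and numbered by their titles. Deposited were 2 tables, 1 of whole read counts for each gene and 1 of FPKM values, in which the authors divided by gene length and depth; per the labels, HISAT2, featureCounts 1.5.0-p3 and StringTie 1.3.3b were used on hg38. All 58735 gene identifiers are in GENCODE 29. Reads shared by overlapping genes and gene strand are uncertain, since the counting settings are not given in the sources used here. Counts were filtered with filterByExpr (minimum count 10, minimum total 15), normalized by TMM and fitted by the edgeR quasi-likelihood test (edgeR 4.0.16, R 4.3.3), with Benjamini-Hochberg adjustment over 14179 genes. DESeq2 1.42.0 on the counts and limma 3.58.1 on log2(FPKM + 1) were run beside it. CPM values are TMM-normalized, and limits of precision are set by 3 libraries per group. The scripts were tested on simulated data. Alternatives changed the normalization, the filter, the test and the libraries, or added the replicate number as a block. All 50 members are named, with NF2, the marker genes and up to 3 called genes in each direction of each other list. The members and lists were chosen with earlier results of these data known. No gene set was tested.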

Additional observations from a re-analysis of the deposited data

How the results depend on the processing

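Over the 12 alternative fits, 544 of 598 values of the 50 mitotic genes kept their direction and their side of the threshold, 25 lost and 12 gained a call, and 17 changed sign. The count of lower members ran from 17 to 19 under the other settings and from 12 to 18 with 1 library left out, the lowest without sgNF2-1 replicate 1 or 3, and that of higher members from 1 to 2 with 1 library left out (2 without sgCtrl replicate 3 or sgNF2-1 replicate 2). Under the study's thresholds, leaving out 1 library gave 2 to 8 lower members. The median over the members ran from -0.23 to -0.12 with 1 library left out, the highest without sgCtrl replicate 3. For the other mitotic genes, the 5 higher calls became 3 in DESeq2 and 2 to 5 with 1 library left out, and the 30 lower calls 20 to 32. On FPKM values, the 14 lower calls became 9 with a pseudocount of 0.1, 8 without the filter and 6 to 10 with 1 library left out, and the 1 higher call 0 to 1, 0 without sgCtrl replicate 1 or 2 or sgNF2-1 replicate 2. With only the bases before the start site, the CHR letters were in 58.1% of the 43 members with a promoter entry. In the same window they were in 13.5% of the 9649 protein-coding genes and 17.2% of all genes of the promoter table. The causes were not tested.

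The groups share replicate numbers, but the deviations of same-numbered libraries correlated at -0.04, 0.07 and 0.06, so the numbers were not taken as pairs. With the replicate block, edgeR called 19 members lower and 2 higher, the gains being INCENP (lower) and CENPA (higher), and limma called 9 lower on FPKM values.

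Changes of sign concerned 8 genes that were not called. With library totals the log2 fold change was -0.00442 for CDC25B and -0.0188 for TPX2, without the filter it was 0.000639 for UBE2C, and with at least 10 counts in every library it was -9.4e-05 for TPX2. With 1 library left out it ran from -0.0244 (sgCtrl replicate 3) to 0.0884 for CDC25B, from -0.104 to 0.00617 (sgNF2-1 replicate 1) for FOXM1, from -0.0500 to 0.0167 (above 0 without sgCtrl replicate 1 or sgNF2-1 replicate 1 or 3) for UBE2C and from -0.0590 to 0.104 (below 0 without sgCtrl replicate 2 or sgNF2-1 replicate 3) for AURKB. It ran from -0.0102 (sgNF2-1 replicate 2) to 0.143 for CDCA8, from -0.110 to 0.0103 (sgCtrl replicate 3) for SPC25, from -0.0345 to 0.0325 (below 0 without sgCtrl or sgNF2-1 replicate 2) for TPX2 and from -0.181 to 0.0392 (above 0 without sgCtrl replicate 3 or sgNF2-1 replicate 1) for NUSAP1. Of 35 called genes named from the other lists, the called marker genes included, 27 stayed called in each alternative fit and 8 were lost in at least 1. The mesothelial marker KRT18 was 1 of the 8. Its edgeR adjusted p was 0.0609 without sgCtrl replicate 1, 0.0948 without sgCtrl replicate 2 and 0.0660 without sgNF2-1 replicate 3. PRC1, CENPE, KIF15 and NUSAP1, all low in counts, have the widest intervals.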
